A study of Mus musculus with 6 samples.

Results

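The troponin subunits were followed in HL-1 cells, a beating muscle cell line derived from mouse atrium, with and without added hyaluronan. Members were all probes annotated to the genes Tnnc1, Tnnc2, Tnni1, Tnni2, Tnni3, Tnnt1, Tnnt2 and Tnnt3. Of these 8 genes, 7 had a probe, 1 each, among the 25697 probes of the array, and Tnnt2 had none under its symbol in the annotation used. Total RNA was measured on 6 Illumina MouseRef-8 arrays in 3 groups of 2: untreated cells, cells given hyaluronan chains 6 sugars long (o-HA), and cells given native hyaluronan of about 1000 kDa (n-HA). All 3 groups were HL-1 cells cultured in Claycomb medium, and the study's methods give the same incubation time for both hyaluronans but different doses. HL-1 is 1 immortal line grown as a culture, so the arrays hold no second donor or strain. Whether the 2 replicates of a group came from separate cultures is not given in the labels. The p-values therefore reflect the spread between these samples, which may be technical, and precision is limited by how few arrays there were.

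Troponin is the calcium switch of the thin filament in striated muscle. Troponin C binds calcium, troponin I holds actin and myosin apart at low calcium, and troponin T anchors the complex to tropomyosin. Each subunit has isoform genes named for the muscle type in which they are best known. Tnnc1 is shared by cardiac and slow skeletal muscle, Tnni3 and Tnnt2 are the cardiac forms of troponin I and T, Tnni1 and Tnnt1 are the slow skeletal forms, and Tnnc2, Tnni2 and Tnnt3 are the fast skeletal forms. The slow skeletal troponin I is also known from the embryonic heart.

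The promoters of 3 members are printed here because 2 of them, Tnnc1 and Tnnt1, were detected on all 6 arrays and Tnni3, which lies next to Tnnt1 on chromosome 7 with 0 protein-coding genes between them, was not. Each run is the 150 bases before the start site in RefSeq on GRCm38.p6, written 5′ to 3′ on the gene's own strand. The windows are chr14:31208162-31208311 on the plus strand for Tnnc1, chr7:4515976-4516125 on the minus strand for Tnnt1 and chr7:4522529-4522678 on the minus strand for Tnni3. Capitals mark matches to any of 5 motifs searched on both strands.
Tnnc1 promoter: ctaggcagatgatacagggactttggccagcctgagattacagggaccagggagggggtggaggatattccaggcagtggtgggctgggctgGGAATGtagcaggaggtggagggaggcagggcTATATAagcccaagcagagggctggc
Tnnt1 promoter: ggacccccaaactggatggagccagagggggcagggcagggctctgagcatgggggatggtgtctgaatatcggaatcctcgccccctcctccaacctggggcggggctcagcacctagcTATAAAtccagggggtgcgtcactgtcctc
Tnni3 promoter: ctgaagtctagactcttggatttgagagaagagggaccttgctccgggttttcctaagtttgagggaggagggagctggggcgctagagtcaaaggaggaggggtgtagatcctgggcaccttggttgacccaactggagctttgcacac
The motifs were the TATA box (TATAAA or TATATA), the GATA site (GATA with A or T before it and A or G after it), the MEF2 site (CTA and TAG with any 4 bases between them), the M-CAT element (CATTCC) and the CArG box, and no matches overlapped in these 3 windows. Tnnc1 held a TATA box whose first base lay 26 bases before the start site and an M-CAT element, on the opposite strand, 58 bases before it. Tnnt1 held a TATA box 30 bases before its start, and no match was found in the window of Tnni3. Of 32841 promoter windows of the same length, 9.48% held this TATA box, 16% the GATA site, 1.82% the MEF2 site, 7.59% the M-CAT element and 0.917% the CArG box. A match describes these letters and is not a binding site that was measured. In the same assembly Tnni1 and Tnnt2 lie on chromosome 1 with Lad1 between them, and Tnni2 and Tnnt3 on chromosome 7 with Lsp1 between them.

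Across the arrays, mean bead intensity ran from 93.3 to 140.9 and between 4546 and 5763 probes were detected, with both n-HA arrays at the low end of each range. Replicate 1 of n-HA stood apart, correlating at 0.817 to 0.873 with the other arrays on the log2 scale, so results that rest on it are also given without it. The arrays lay on 1 chip and every group took adjacent places of its own on it, so place and group cannot be told apart. Of 11 cardiomyocyte markers, 7 were detected on all 6 arrays, while Gata4, Ryr2 and Myoz2 were detected on 0. Of 14 skeletal muscle markers with a probe, 11 were detected on 0 arrays, among them Myog, Ckm, Myh1 and Mylpf. Their summed intensity was 880.5 to 902.3 in untreated, 864.6 to 916.0 in o-HA and 854.3 to 877.3 in n-HA arrays. Of 9 fibroblast markers, 8 were detected on 0 arrays. Of 7 smooth muscle markers, 4 were detected on all arrays (Tagln, Acta2, Smtn and Myocd), and Myh11 and Cnn1 were detected on 0. In bulk RNA, fewer cells of a type and less RNA per cell cannot be told apart.

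Only Tnnc1 and Tnnt1 among the 7 troponin probes were detected on every array. Probes entered the test where the detection p, taken against negative control beads, was under 0.05 on at least 2 arrays, and these 2 probes passed among 6194 that did. Intensities below are bead means as deposited, before any normalization, and log2 values are after background correction and quantile normalization, with an offset of 16. Levels of the troponin probes were not compared with each other, and a rank within an array serves only to follow 1 probe across arrays.

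Tnnc1 encodes the calcium-binding subunit of cardiac and slow muscle. Its intensity (probe ILMN_2503052) read 3340 and 2859.6 without treatment, 1197 and 1362 after o-HA, and 1529 and 775 after n-HA. Both untreated arrays were above all 4 treated arrays. The share of all probes with this order before normalization was not counted, and the n-HA arrays had the lowest mean intensities (110.1 and 93.3). The standard error over the 38 to 58 beads of an array was between 31.4 and 155, which covers measurement error within that array and not the spread between samples. Both untreated arrays also placed it highest by rank within the array, which no scaling alters. Counted from the brightest probe, Tnnc1 ranked 108 and 97 without treatment, 272 and 263 after o-HA, and 165 and 212 after n-HA. After normalization the levels were 11.26 and 11.40 in untreated, 10.09 and 10.13 in o-HA, and 10.74 and 10.41 in n-HA on the log2 scale. Without normalization the lowest Tnnc1 value came from n-HA replicate 2, the array with the lowest mean intensity, and with it from an o-HA array.

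**Figure D1:**
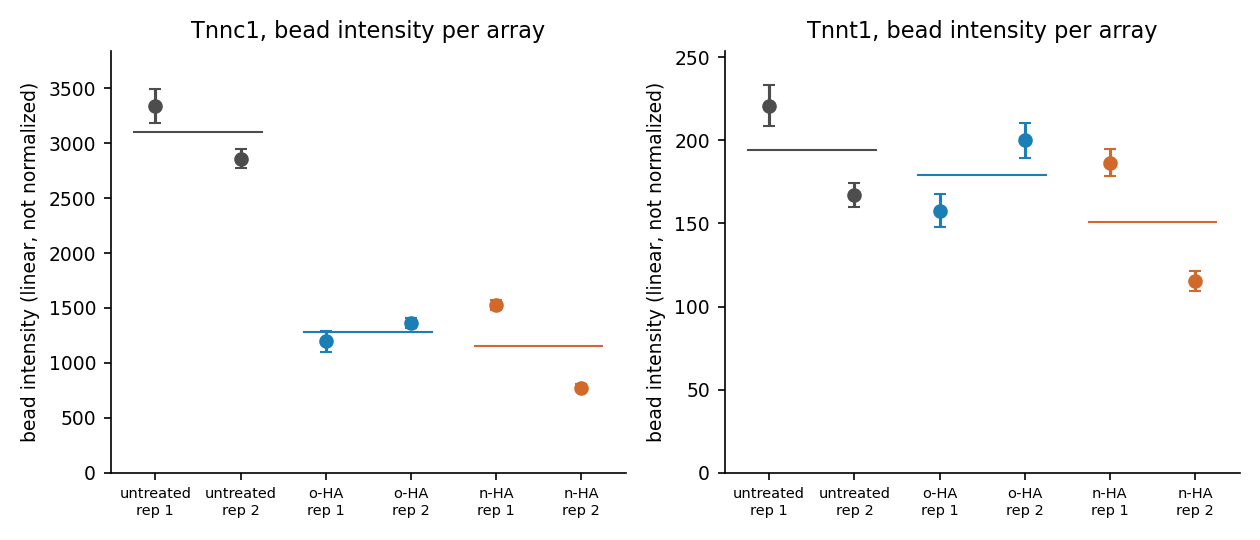
Bead intensity before normalization (linear axes from 0, a scale for each gene) of Tnnc1 and Tnnt1 on each array, with error bars for the standard error over beads of that array and horizontal lines for group means. Both untreated Tnnc1 points (3340 and 2859.6) lie above the 4 treated points, while the Tnnt1 groups overlap.

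With o-HA, the log2 difference of Tnnc1 from untreated cells was −1.22 (SE 0.22, 95% interval −1.77 to −0.68, n = 2 against 2), a 2.33-fold lower level. The o-HA replicates were −1.24 and −1.20 from the untreated mean, while the untreated replicates lay 0.14 apart and the o-HA replicates 0.04 apart. In limma's moderated test the p was 0.00142 and the adjusted p over all 6194 probes was 1. With all 6 arrays weighted equally and processed as above, 0 of the 2 troponin probes passed the adjusted threshold of 0.05, as did 0% of all probes, and 78 probes (1.26%) had an unadjusted p under it. Tnnc1 had the lowest p and the lowest log2 difference of the 6194 probes in this fit. Its groups did not overlap, which was also so, with o-HA lower, for 22% of all probes.

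Whether the Tnnc1 difference passed the threshold varied with the arrays in the fit, which share 1 estimate of the spread, and with the processing. Without n-HA replicate 1, Tnnc1 fell with o-HA by 1.20 (SE 0.17, adjusted p = 0.0188), 1 of 24 probes called among 5893 tested (0.407%). In such fits the remaining n-HA array is assumed to vary like the other groups. Without n-HA replicate 2 it fell by 1.22 (adjusted p = 0.0194), with 0.403% of probes called. With a weight estimated per array, both arrays of a group received the same weight, 0.220 for n-HA against 2.13 for the others. These weights therefore could not tell the replicates of a group apart. With them the adjusted p of Tnnc1 was 0.00611, and 0.42% of probes were called, 0.226% as lower. With no normalization and without n-HA replicate 1 it was 0.0285, with 0.0509% of probes called. Without the same array it did not pass on the authors' values (adjusted p = 0.190) or with the replicate number as a block (adjusted p = 0.131), where limma called 0 probes and 744 and 662 of 5893 had an unadjusted p under 0.05. In a fit of the untreated and o-HA arrays alone the adjusted p was 0.0762, and on the authors' normalized values of all 6 arrays the difference was −1.08 with an adjusted p of 1. Over 20 alternatives, some of which could not move the difference, it lay between −1.32 and −1.08, and the adjusted p between 0.00611 and 1.

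**Figure D2:**
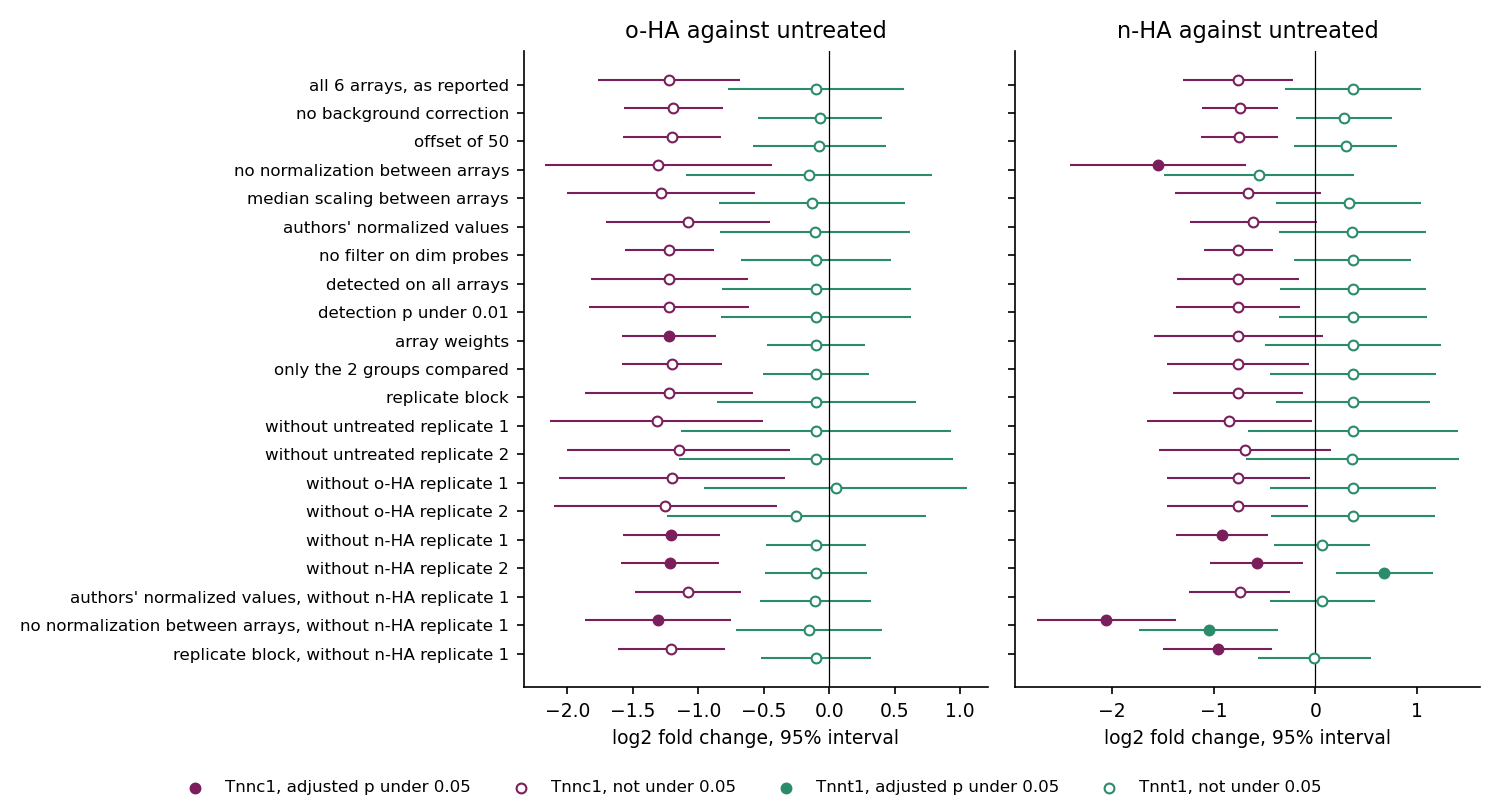
Log2 differences from untreated cells for Tnnc1 and Tnnt1 under each setting, for o-HA and n-HA, with lines for 95% intervals and filled symbols where the adjusted p from limma passed 0.05. The Tnnc1 values are below 0 under every setting run, and Tnnt1 with n-HA lies on both sides of 0.

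With n-HA, the log2 difference of Tnnc1 from untreated cells was −0.76 (SE 0.22, 95% interval −1.30 to −0.22, n = 2 against 2), a 1.69-fold lower level. The n-HA replicates were −0.59 and −0.93 from the untreated mean, so both were lower, and they lay 0.33 apart, further than the replicates of either other group. The p from limma was 0.0138 and the adjusted p 0.176. In this fit 0 of the 2 troponin probes passed the adjusted threshold, as did 0% of the 6194 probes, while 1349 (21.8%) had an unadjusted p under it. The groups did not overlap, with n-HA lower, which held for 30.5% of all probes. Against that background the difference was less set apart than with o-HA, since 15.3% of all probes had a lower log2 difference. The untreated arrays are shared by both comparisons, so they are not independent of each other.

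Without n-HA replicate 1, Tnnc1 fell with n-HA by 0.92 (adjusted p = 0.0113), where 17.1% of all probes were called. Without n-HA replicate 2 it fell by 0.58 (adjusted p = 0.0331), where 54.1% were called. With no normalization between arrays the difference was −1.55 (adjusted p = 0.0237, 23.8% of probes called) and the median of all tested probes was −0.35, so that Tnnc1 lay at −1.20 relative to that median. Scaling the arrays by their medians put Tnnc1 at −0.66 and the median of all probes at 0.54, the same distance between them. On the authors' normalized values the difference was −0.61 (adjusted p = 0.233), and without n-HA replicate 1 it was −0.74 (adjusted p = 0.0575).

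**Figure D3:**
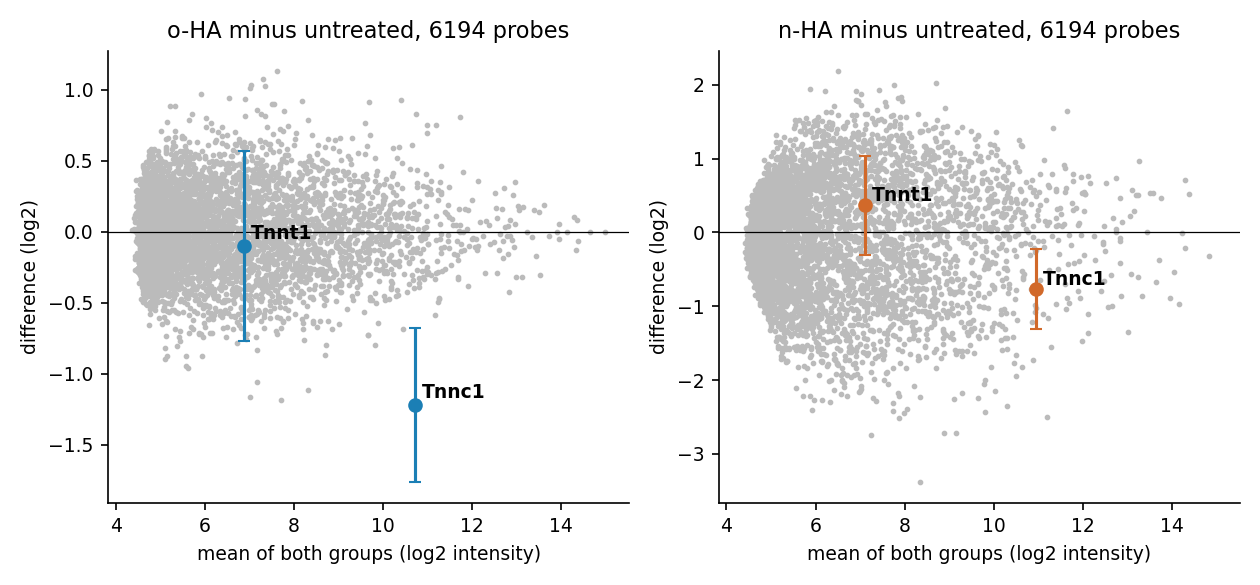
Log2 difference from untreated cells of the 6194 tested probes against their mean log2 level, for o-HA and n-HA, with Tnnc1 and Tnnt1 marked with their 95% intervals. Tnnc1 is the lowest point with o-HA (−1.22) and lies within the wider cloud with n-HA (−0.76).

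By mean log2 level, Tnnc1 was ordered untreated (11.33, SD 0.10), n-HA (10.57, SD 0.24) and o-HA (10.11, SD 0.03). The lower n-HA array, at 10.41, was above the higher o-HA array, at 10.13. Because the doses differed, no test was made between the treatments.

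Tnnt1 encodes the slow skeletal form of the tropomyosin-binding subunit. Its intensity (probe ILMN_2460136) read 220.8 and 167.3 without treatment, 157.7 and 199.9 after o-HA, and 186.5 and 115.5 after n-HA. The 3 groups overlapped on this scale. After normalization the log2 levels were 6.93 and 6.93 in untreated, 6.68 and 6.98 in o-HA, and 7.61 and 7.0 in n-HA. The untreated values lay between those of o-HA, and both n-HA values were above both untreated values, replicate 1 by more.

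With o-HA, the log2 difference of Tnnt1 was −0.10 (SE 0.28, 95% interval −0.77 to 0.57, limma adjusted p = 1). The interval holds differences of either sign, and leaving out o-HA replicate 1 moved the value to 0.049. With n-HA the log2 difference was 0.37 (SE 0.28, 95% interval −0.30 to 1.04, limma adjusted p = 0.438). The n-HA replicates were 0.67 and 0.07 above the untreated mean, and 23.8% of all probes had groups that did not overlap with n-HA higher. Tnnt1 rose by 0.68 when n-HA replicate 2 was left out (adjusted p = 0.0176), so that n-HA was replicate 1 alone, and was 0.066 higher when replicate 1 was left out (adjusted p = 0.852). The sign turned with the scaling, to −0.56 with no normalization. Relative to the median of all tested probes, Tnnt1 lay 0.38 above it as normalized here and −0.21 from it with no normalization or with median scaling.

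Across the 6 arrays the log2 levels of Tnnc1 and Tnnt1 correlated at r = 0.169, and at 0.306 over the 5 arrays without n-HA replicate 1. These values describe arrays of 3 groups on 1 chip. Over 6 arrays the probes most like Tnnc1 by Pearson correlation were those of Tmem59 (0.976), Gnao1 (0.964) and Rasl11b (0.960). Over 5 arrays they were those of Pex6 (0.999), Zranb2 (0.997) and Men1 (0.996), so the most similar probes differed with the array left out. The Tmem59 probe was detected on 2 of the 6 arrays and that of Zranb2 on 3, so these likenesses include values near background. Other probes of these genes differed for Rasl11b and Pex6. A second Rasl11b probe had log2 differences of 0.13 with o-HA and 1.20 with n-HA where the first had −0.30 and −0.20. Another Pex6 probe, detected on all 6 arrays, had 0.37 with o-HA and 1.44 with n-HA where the first had −0.55 and −1.08. The probes most like Tnnt1 were those of Pold1 (0.997), Fsd2 (0.994) and Csrp2 (0.992) over 6 arrays, and of Actg1 (0.995), Fdps (0.993) and Bccip (0.993) over 5.

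The other 5 troponin probes stayed near background, where the lowest intensity still detected was 70.1 to 73.0 depending on the array. Tnnc2, the fast skeletal calcium-binding subunit, read 71.3 and 60.5 in untreated, 58.1 and 71.6 in o-HA, and 76.9 and 54.8 in n-HA. It was detected on 1 array, n-HA replicate 1, at a detection p of 0.0163. Tnni3, the cardiac inhibitory subunit and a standard cardiac marker, read 76.5 and 61.7 in untreated, 64.3 and 58.6 in o-HA, and 68.9 and 60.5 in n-HA. It was detected on 1 array, untreated replicate 1, at a detection p of 0.0213. At a detection p under 0.01, neither was detected on any array.

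Tnni1, the slow skeletal inhibitory subunit, had intensities of 56.9 to 69.3 and its lowest detection p was 0.0927. Tnni2, the fast skeletal inhibitory subunit, ranged from 50.3 to 69.4 with a lowest detection p of 0.107. Tnnt3, the fast skeletal tropomyosin-binding subunit, ranged from 54.3 to 61.4 with a lowest detection p of 0.499. All 3 were not above background on any of the 6 arrays, so only an upper bound on their signal was had and no fold change is given. By subunit, then, troponin C and troponin T each had 1 gene detected on all 6 arrays, and none of the 3 troponin I probes was detected on more than 1 array. A dim signal bounds what this probe measured and was not checked against a second probe.

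**Figure D4:**
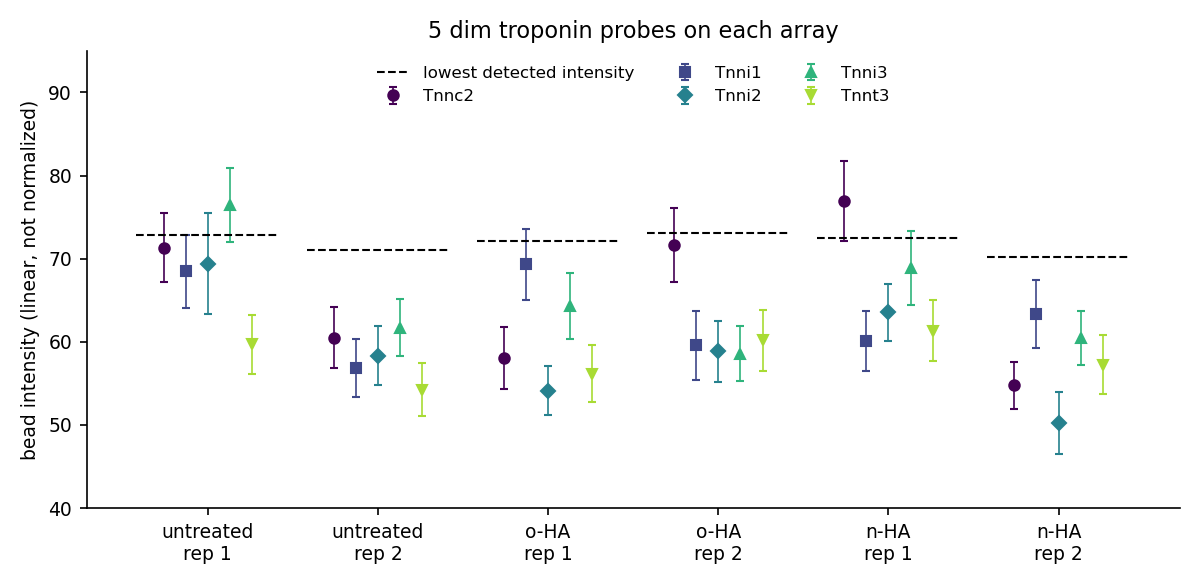
Bead intensity before normalization of the 5 troponin probes near background on each array, by group, with error bars for the standard error over beads and a dashed line at the lowest detected intensity of each array (70.1 to 73.0, on an axis that starts at 40). Only Tnnc2 on n-HA replicate 1 (76.9) and Tnni3 on untreated replicate 1 (76.5) were detected.

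Genes that work with troponin were read from 6 lists, with 1 probe per gene. In the same fit of all 6 arrays as for the troponins, 0 members of these lists passed the adjusted threshold in either comparison, as for all probes. Among 8 tested thin filament partners, 3 were higher and 5 lower with o-HA (median log2 difference −0.14), and the same counts held with n-HA (median −0.26, or −0.07 without n-HA replicate 1). Among all 6194 probes 3114 were higher and 3080 lower with o-HA (median 0.00). Tpm2, the beta chain of tropomyosin to which troponin T binds, was at 5.38 and 5.24 in untreated, 5.24 and 4.97 in o-HA, and 4.41 and 4.45 in n-HA on the log2 scale. The n-HA values lay below all others, and 30.5% of all probes had groups that did not overlap with n-HA lower than untreated. Neither n-HA array detected the Tpm2 probe, so its measured level there was lower by at least 1.38-fold (limma adjusted p = 0.167). This bound sets the untreated mean against the lowest detected level of the n-HA arrays. Without n-HA replicate 1 the log2 difference of Tpm2 was −0.90. Actc1, cardiac actin, was at 7.02 and 6.88, at 6.68 and 6.91, and at 8.95 and 7.32 in the same order of groups (log2 differences −0.15, SE 0.51, and 1.19, SE 0.51). The higher value with n-HA was led by replicate 1, and a second Actc1 probe detected on all 6 arrays had log2 differences of −0.31 and 0.04.

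In the thick filament list, 4 of 9 tested genes were higher and 5 lower with o-HA (median −0.25), and 5 were higher and 4 lower with n-HA (median 0.00). Without n-HA replicate 1, 3 were higher and 6 lower with n-HA (median −0.11). Myl3, a ventricular and slow muscle essential light chain, was at 6.33 and 6.15 in untreated, 5.58 and 5.46 in o-HA, and 7.04 and 6.27 in n-HA (log2 difference with o-HA −0.72, SE 0.30). Myh6, the alpha myosin heavy chain, was at 6.01 and 6.15, at 5.23 and 5.55, and at 5.63 and 5.77 (log2 difference with o-HA −0.68, SE 0.22). Myl7, the atrial regulatory light chain, had a log2 difference of −0.63 with o-HA (SE 0.25), where 1 of 2 arrays detected it, and neither n-HA array detected it, at least 1.53-fold lower than untreated. In these 3 genes both o-HA arrays were below both untreated arrays, as for 22% of all probes. Myl2, the ventricular regulatory light chain, was at 6.92 and 6.82 in untreated, 7.24 and 7.35 in o-HA, and 6.96 and 6.99 in n-HA, and its o-HA values were above the untreated values (log2 difference 0.43, SE 0.20), as for 21.7% of all probes. None of the 4 passed the adjusted threshold with o-HA (limma adjusted p = 1 for each).

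Of the 11 tested genes that supply or clear calcium, 5 were higher and 6 lower in each comparison (medians −0.05 and −0.22, the latter −0.32 without n-HA replicate 1). Sln, sarcolipin, an inhibitor of the calcium pump in atrium, was at 7.06 and 7.15 in untreated, 6.43 and 6.46 in o-HA, and 7.31 and 6.46 in n-HA (log2 differences −0.66, SE 0.31, and −0.22, SE 0.31). Both o-HA arrays and n-HA replicate 2 were below the untreated arrays, and n-HA replicate 1 was above them. Of all probes, 22% had groups that did not overlap with o-HA lower. Atp2a2, the pump itself, had log2 differences of 0.31 and 0.55 (SE 0.25 for both), where a second probe detected on all 6 arrays had −0.25 and 0.47, of opposite sign with o-HA. Ryr2, Pln and Casq2, which release, regulate and store calcium in the sarcoplasmic reticulum, were detected on 0 arrays. Among 5 tested EF-hand proteins, relatives of troponin C in their calcium-binding fold, the medians were −0.03 with o-HA and 0.03 with n-HA. Without n-HA replicate 1 only 4 of them were tested, and both medians turned sign, to 0.05 and −0.31. Calm3, a calmodulin gene, had a log2 difference of −0.03 with o-HA (SE 0.33).

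Among 12 tested kinases and phosphatases that act on troponin I or T, 5 were higher and 7 lower with o-HA (median −0.03), and 6 were higher and 6 lower with n-HA (median 0.00). Without n-HA replicate 1, 3 were higher and 8 lower with n-HA (median −0.42). Stk4, a kinase of the Hippo pathway, had log2 differences of 0.56 with o-HA and 0.12 with n-HA (SE 0.59 for both). Prkacb, a catalytic subunit of protein kinase A, had 0.39 and 1.27 (SE 0.55 for both). Ppp1cc, a catalytic subunit of protein phosphatase 1, had log2 differences of −0.50 with o-HA and −1.59 with n-HA (SE 0.38 for both). Without n-HA replicate 1 the n-HA difference of Stk4 turned sign, to −0.79. Those of Prkacb and Ppp1cc became 0.55 and −1.03. All 7 tested transcription factors of cardiac troponin promoters were lower with o-HA (median −0.19), where 3080 of all 6194 probes were lower. These log2 differences ran from −1.06 to −0.03, and only those of Tbx5 and Nkx2-5 were larger in size than their standard errors. With n-HA, 5 of the factors were higher and 2 lower (median 0.26, or 0.19 with 4 higher and 3 lower without n-HA replicate 1). Tbx5, a T-box factor of atrium and left ventricle, was at 7.74 and 7.65 in untreated, 6.73 and 6.54 in o-HA, and 4.89 and 6.31 in n-HA. All 4 treated values lay below both untreated values, with log2 differences of −1.06 and −2.09 (SE 0.46 for both, limma adjusted p = 1 and 0.159). Groups that did not overlap, with the treated group lower, were found for 22% of all probes with o-HA and 30.5% with n-HA. A second Tbx5 probe was detected on 0 arrays. Gata4, Hand2, Tead1 and Tead4 were detected on 0 arrays.

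Without n-HA replicate 1, Tbx5 was the 1 gene of the 6 lists that passed with o-HA, where 0.407% of all probes were called. It fell there by 1.05 (limma adjusted p = 0.0258). With n-HA, then 1 array, its log2 difference was −1.37. With only 1 n-HA array left, that comparison took its spread from the other groups alone, so genes passing in it are not counted here. With n-HA, the medians relative to all tested probes changed sign with no normalization or median scaling for the thick filament list (0.01 to −0.29), the EF-hand list (0.04 to −0.41) and the transcription factors (0.27 to −0.01). That of the kinases and phosphatases, 0.01, became −0.0021 with no background correction and −0.00035 on the authors' values. With o-HA, the 6 medians stayed below that of all probes under the 4 other scalings run. The part of mean intensity and chip place in these differences was not tested.

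**Figure D5:**
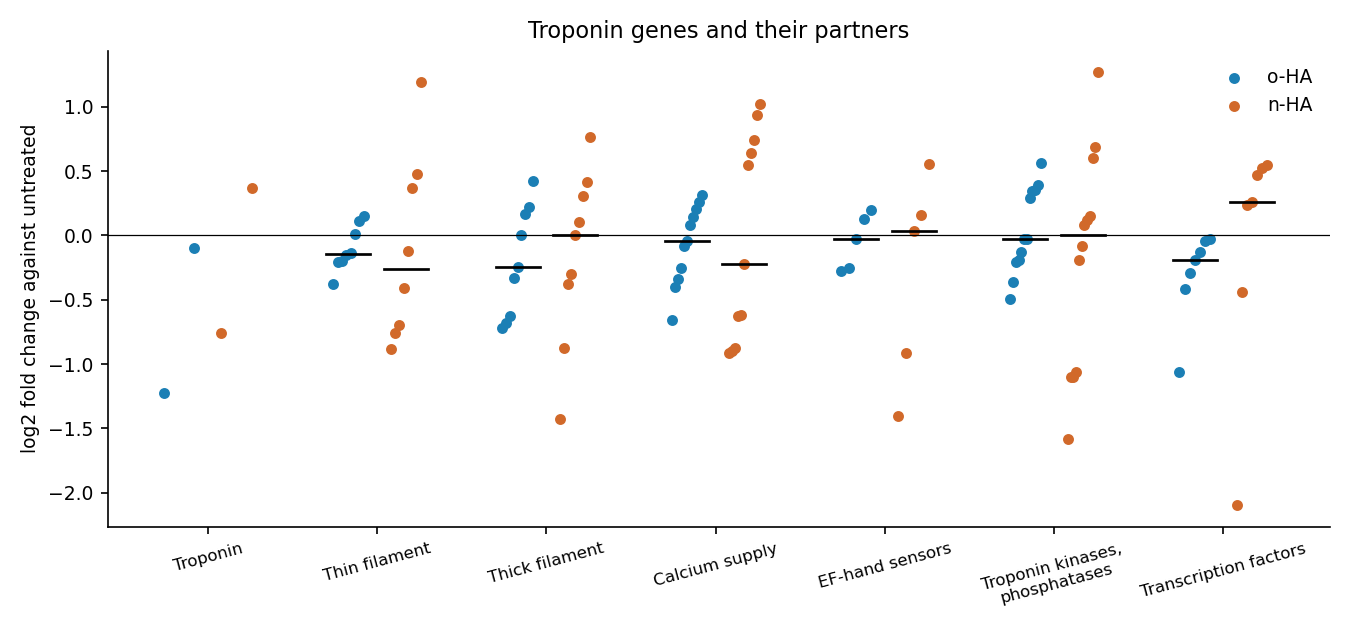
Log2 difference from untreated cells of the tested genes of 6 lists and of the 2 tested troponins, for o-HA and n-HA, with each point 1 gene and the black bar the list median. Tnnc1 (−1.22) lies below every gene of the lists with o-HA, and Tbx5 (−2.09) is the lowest with n-HA.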

How the data were processed

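Bead intensities per probe were deposited by the authors as exported by BeadStudio, for which the submitters' processing notes give version 3.3. They were not normalized and came with a deposited detection p-value against negative control beads, bead number and bead standard error. Normalized intensity values that the authors also deposited served as an alternative. Per the labels, RNA was extracted with a miRNeasy kit and amplified with the TotalPrep kit. Of 25697 probes, 23978 carried 1 symbol, 0 several and 1719 none in the platform annotation, and 23962 matched by Entrez ID. Intensities were processed with neqc in limma 3.58.1 (R 4.3.3), with an offset of 16 and quantile normalization, to log2 values. Probes detected at p under 0.05 on at least 2 of 6 arrays (6194 probes, 4885 genes) were fitted with 1 mean per group (lmFit, eBayes, two-sided), adjusted by Benjamini-Hochberg over all of them. The estimated log2 differences were checked on simulated data in which all groups had the same spread, unlike the n-HA arrays here. The test the authors ran in BeadStudio was not run here. A level not detected in a group is given as a bound against the lowest detected level of its arrays.

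Every troponin probe was named. For Tnnc1 and Tnnt1 the 3 tested probes with the highest correlation were named, and from each list genes past the threshold or otherwise up to 4 with the largest difference with o-HA, of which some are given here. Members and lists were chosen with earlier results of these data known. Alternatives changed the background correction, offset, scaling, filter, array weights, samples and replicate block.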

Additional observations from a re-analysis of the deposited data

How the results depend on the processing

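Tnnc1 was below untreated in all 20 alternatives of both comparisons, and the limits are the 2 arrays per group, 1 probe per gene and the spread of the n-HA arrays. With array weights, 26 probes passed with o-HA, 1 of them a troponin (Tnnc1, −1.22), and 8 passed with n-HA. Leaving out 1 array at a time, o-HA gave 0 to 24 probes, 0 to 1 troponin probes, −1.32 to −1.15 for Tnnc1 and −0.25 to 0.049 for Tnnt1. For n-HA the ranges were 0 to 3221 probes, 0 to 2 troponin probes, −0.92 to −0.58 for Tnnc1 and 0.066 to 0.68 for Tnnt1. With no normalization, n-HA gave 1472 probes, 1 of them a troponin (Tnnc1, −1.55), with Tnnt1 at −0.56. With no filter on dim probes, 12 passed with n-HA. The cause of these shifts was not tested.

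Alternatives added after seeing the data also left out n-HA replicate 1. With 1 n-HA array left, their n-HA comparisons took the spread from the other groups alone. The n-HA counts below are 39.1%, 11.6% and 5.92% of the 5893 probes tested, in that order. With no normalization every probe called with n-HA was lower, so passing there does not set the troponins apart. With no normalization, 3 probes passed with o-HA, 1 of them a troponin (Tnnc1, −1.31), and 2305 with n-HA, where both troponins passed (Tnnc1 −2.06, Tnnt1 −1.05, against a median of −0.63 for all probes). On the authors' values, 0 probes passed with o-HA (Tnnc1 adjusted p = 0.190) and 683 with n-HA, not Tnnc1 (adjusted p = 0.0575). With the replicate number as a block, 0 passed with o-HA (Tnnc1 adjusted p = 0.131) and 349 with n-HA, 1 of them a troponin (Tnnc1, −0.96, with Tnnt1 at −0.0084).

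In the labels, same-numbered samples have only a number in common, and whether they shared anything else is not given. Correlations of deviations between groups were −0.11, 0.15 and −0.04. The replicate block over all 6 arrays gave 0 probes in both comparisons. Every group held both replicate numbers, so the block could not move the differences (Tnnc1 −1.22 and −0.76, Tnnt1 −0.10 and 0.37). Only their spread and p could change, and the limma adjusted p of Tnnc1 was 1 with o-HA and 0.214 with n-HA.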
